A study of Mus musculus with 24 samples.

Results

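Insulin and insulin-like growth factor (IGF) signalling was followed at 10 genes, taken by symbol from the 48526 genes of the count table. They were the growth factor gene Igf1, the receptor genes Insr and Igf1r, the adaptor genes Irs1 and Irs2, the transcription factor gene Foxo1 and the binding protein genes Igfbp1, Igfbp3, Igfbp4 and Igfbp5. Each of the 10 passed the expression filter that left 15808 genes for testing. The libraries hold renal cortex RNA of 24 mice of the C57BL/6 strain, 6 in each of 4 groups, which were diabetic or not and drank water with or without PMX-53. Diabetes was induced at 6 weeks of age by 5 daily injections of 55 mg/kg streptozotocin, a toxin of the insulin-producing beta cells, and the non-diabetic mice received citrate. PMX-53, a peptide inhibitor of the complement receptor C5aR1, was given at 2 mg/kg in the drinking water, and mice on water alone are called vehicle mice here. The mice were followed for 24 weeks. Streptozotocin lowers insulin secretion, so these diabetic mice are a model of insulin deficiency. Neither sex nor blood glucose is given in the labels used here.

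Insulin and IGF-1 bind related receptor tyrosine kinases, which phosphorylate the IRS adaptors and pass the signal through PI3 kinase to AKT. AKT phosphorylates FOXO1, which then leaves the nucleus, so that genes such as Igfbp1 and Pck1 that insulin represses are transcribed more when insulin is low. IGF binding proteins hold IGFs in the circulation and in tissue, and proteases such as PAPP-A release the IGF by cutting them. In the kidney the proximal tubule, which makes glucose, and the glomerulus both carry insulin and IGF-1 receptors.

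The sequences just upstream of 3 members are shown: Igfbp1, whose level differed most with diabetes, and Igfbp3 and Irs1, whose diabetic and non-diabetic vehicle libraries did not overlap. Igfbp1 and Igfbp3 are neighbours on chromosome 11, with their ends 3539 bases apart, and are transcribed towards each other from opposite strands. Each line gives the 250 bases before the RefSeq start of the gene (GRCm38.p6), 5′ to 3′ on the gene's own strand. They lie at chr11:7197537-7197786 on the plus strand for Igfbp1, at chr11:7213924-7214173 on the minus strand for Igfbp3 and at chr1:82291440-82291689 on the minus strand for Irs1. Capitals mark CAAAACA, the core of the insulin response sequence, or TGTTTTG, the same letters on the other strand.
Igfbp1: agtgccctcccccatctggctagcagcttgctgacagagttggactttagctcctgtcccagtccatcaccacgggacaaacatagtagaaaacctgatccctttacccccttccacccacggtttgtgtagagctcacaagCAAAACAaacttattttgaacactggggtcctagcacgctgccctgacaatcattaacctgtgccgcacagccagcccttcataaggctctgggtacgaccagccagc
Igfbp3: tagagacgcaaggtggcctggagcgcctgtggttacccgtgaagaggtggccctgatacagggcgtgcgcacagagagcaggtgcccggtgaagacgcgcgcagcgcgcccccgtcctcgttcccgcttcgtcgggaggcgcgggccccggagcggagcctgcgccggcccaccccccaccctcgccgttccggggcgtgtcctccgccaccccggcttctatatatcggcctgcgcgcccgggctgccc
Irs1: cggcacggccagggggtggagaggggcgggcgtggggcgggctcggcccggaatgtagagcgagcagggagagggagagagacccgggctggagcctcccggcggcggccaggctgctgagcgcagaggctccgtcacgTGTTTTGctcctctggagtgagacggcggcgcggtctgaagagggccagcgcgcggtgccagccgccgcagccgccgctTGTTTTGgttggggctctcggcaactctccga
RefSeq upstream sequences were found for 9 of the 10 members. The core was present in 3 of them, namely once for Igfbp1, at 108 to 102 bases before the start, once for Irs2 and at both marked places for Irs1. It was present in 5.56% of the 32851 upstream windows of this length in the RefSeq table. The FoxO core GTAAACA, or TGTTTAC on the other strand, was present in 0 of the 9 and in 3.17% of all windows. The marked letters describe the sequence and do not show that a factor binds there.

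All 10 members are protein-coding genes in the GRCm38 annotation (GENCODE M21). The ligand and receptor genes lie at chr10:87858265-87937042 (Igf1), chr8:3122061-3279617 (Insr) and chr7:67952827-68233668 (Igf1r). The adaptor and transcription factor genes lie at chr1:82233101-82291416 (Irs1), chr8:10984681-11008458 (Irs2) and chr3:52268336-52353221 (Foxo1). Of the binding protein genes, Igfbp1 is at chr11:7197782-7202546, Igfbp3 at chr11:7206086-7213923, Igfbp4 at chr11:99041244-99054392 and Igfbp5 at chr1:72857932-72874884.

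The libraries held 10964992 to 22000895 counts, and levels are given as counts scaled to library size (CPM) after TMM scaling. Proximal tubule markers of segments S1 and S2 summed to between 9519 and 16391 CPM over the 24 libraries, islet markers summed to at most 0.174 CPM, and Ins1 had 0 counts and Ins2 7 counts over all libraries. The diabetic vehicle libraries stood apart from the other 18 at genes outside the pathway as well as in it: Nnt, a mitochondrial transhydrogenase, was at 242 to 272 CPM there and at 101 to 121 elsewhere, and Ide, the insulin-degrading enzyme, was at 62.2 to 76.5 and at 111 to 169. Mitochondrially encoded genes took 29.5% ± 2.14 of their counts, against 22.6% ± 1.65 in non-diabetic vehicle, 22.9% ± 1.51 in non-diabetic PMX-53 and 25.8% ± 2.56 in diabetic PMX-53 libraries (SD, n = 6 each). The diabetic vehicle range, 25.9% to 31.9%, overlapped the diabetic PMX-53 range, 22.2% to 29.0%. Ribosomal RNA genes, a class that includes the mitochondrial rRNA genes, took 21.0% to 27.0% of counts in diabetic vehicle libraries. They took 16.7% to 20.6% in non-diabetic vehicle, 17.2% to 20.5% in non-diabetic PMX-53 and 18.9% to 24.7% in diabetic PMX-53 libraries. These classes overlap, and the part of ribosomal RNA in the mitochondrial difference was not tested. Whatever else sets the diabetic vehicle libraries apart cannot be told apart from diabetes without the inhibitor. Comparing the PMX-53 groups tests diabetes under the inhibitor, with these 6 libraries in neither group. They still enter the filter, the scaling and the shared spread of the fit. The p-values measure the spread between samples, part of which may be technical.

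Per length of exon, Igfbp4 was the most abundant member and Igf1 the least. In non-diabetic vehicle mice the means were 161 CPM per kb for Igfbp4, 53.9 for Igfbp3, 51.0 for Igfbp5, 33.6 for Igf1r, 16.7 for Irs2, 16.5 for Insr, 8.11 for Foxo1, 8.04 for Igfbp1, 3.07 for Irs1 and 0.602 for Igf1. The range of Igfbp5 overlapped those of Igfbp3 and Igf1r, and the ranges of Irs2, Insr and Foxo1 each overlapped that of Igfbp1. Irs2 also overlapped Insr and Foxo1, so the order within these pairs is not beyond their spread. In the diabetic vehicle group Igfbp1 was at 32.1 CPM per kb and Igfbp3 at 30.4, next to each other in the order after Igf1r, again with overlapping ranges. In the diabetic PMX-53 group Igfbp3 came after Igfbp5 at 58.8 and Igfbp1 came after Irs2 at 9.98.

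**Figure D1:**
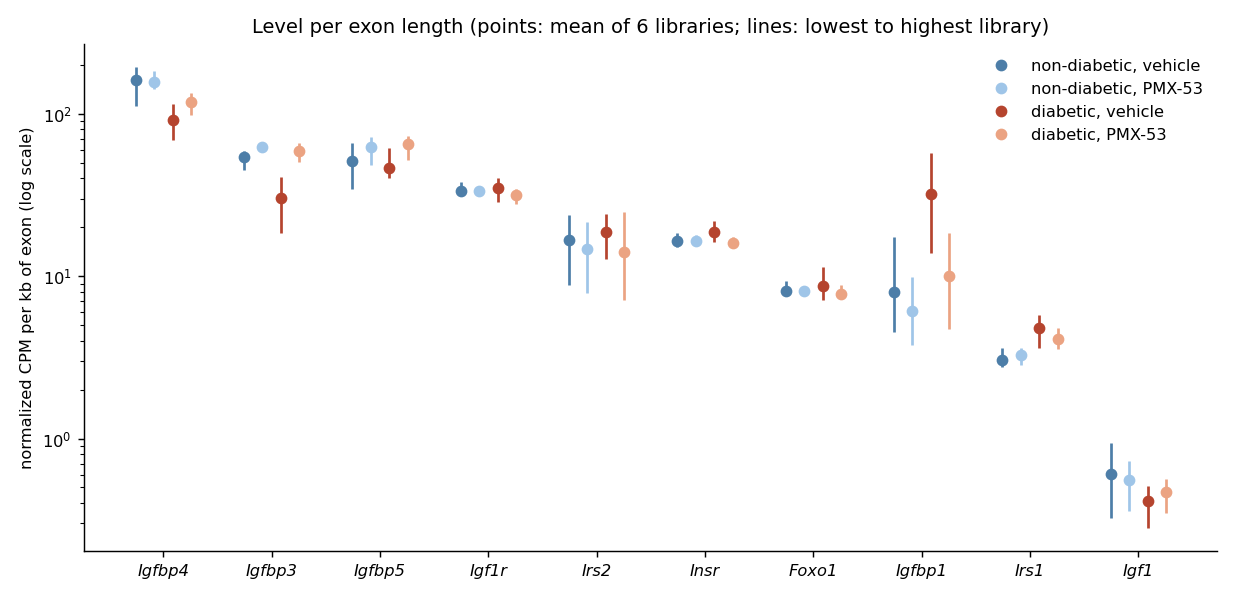
Level of each member per kilobase of exon (log axis, normalized CPM per kb) in the 4 groups, with points for the mean of 6 libraries and lines from the lowest to the highest library. Igfbp4 is highest and Igf1 lowest in each group, and Igfbp1 moves from 8.04 in non-diabetic to 32.1 in diabetic vehicle mice.

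Diabetes on vehicle came with higher Igfbp1 and Irs1 and with lower Igfbp3 and Igfbp4 in the cortex, and by smaller margins with higher Insr and lower Igf1. Thus 3 of the 10 members rose and 3 fell, where 20.4% of all genes tested rose and 19.9% fell. Their median log2 fold change was 0.08, against -0.00 over all genes. For Irs1 and Igfbp3 the 6 libraries of one group did not overlap those of the other, as for 14.9% of all genes. Against a background this high the number of members that differed is no result in itself, and the sizes are given gene by gene.

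**Figure D2:**
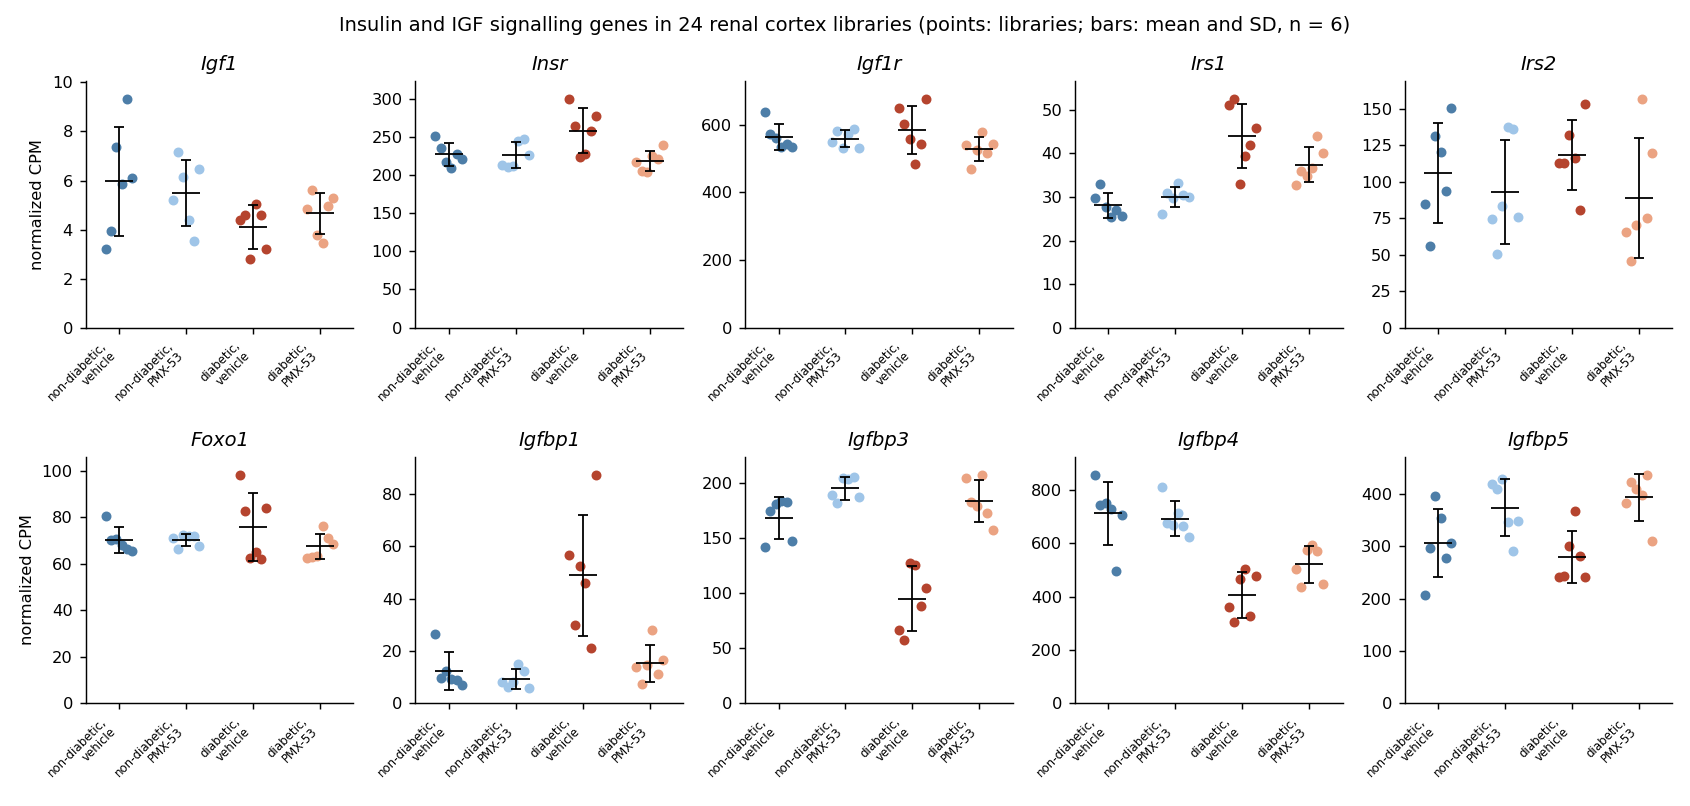
Normalized CPM of the 10 members in each of the 24 libraries (points), with the mean and SD of each group of 6. In the Igfbp3 panel all 6 diabetic vehicle libraries, at 57.7 to 127, lie below the 18 others, at 142 to 207.

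Igf1 encodes the ligand of the IGF-1 receptor, which in blood comes mostly from liver under growth hormone. In the cortex it was scarce, with 44 to 129 counts per library. It ranged from 3.20 over a median of 5.98 to 9.31 CPM in non-diabetic vehicle libraries, and from 2.79 over 4.47 to 5.04 CPM in diabetic vehicle libraries. The groups overlapped, with all 6 diabetic libraries under the non-diabetic mean. This gave a log2 fold change of -0.53 ± 0.21 (SE, edgeR adjusted p = 0.0494). It passed in 8 of 21 alternatives, and the call was lost when any 1 of 9 of the 12 libraries was left out (all except non-diabetic vehicle replicates 1 and 2 and diabetic vehicle replicate 4), where the log2 fold change ran between -0.66 and -0.36 over the 12 omissions and the adjusted p reached 0.167. On PMX-53 Igf1 spanned 3.55 to 7.18 CPM without and 3.47 to 5.61 CPM with diabetes (-0.25 in log2, edgeR adjusted p = 0.508).

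Insr, the insulin receptor gene, changed little. Its levels were 209, 224 and 252 CPM (lowest, median, highest) in non-diabetic vehicle mice and 224, 261 and 299 CPM in diabetic vehicle mice. The groups overlapped, and 5 of 6 diabetic libraries were above the non-diabetic mean. The log2 fold change was 0.19 ± 0.07 (edgeR adjusted p = 0.0272), a fold of 1.14. It passed in 14 of 21 alternatives. It was 0.10 with no scaling of libraries (adjusted p = 0.417), and the call was also lost without diabetic vehicle replicate 1 or 6 or non-diabetic vehicle replicate 3, 4 or 6, with a log2 fold change of 0.14 at the least. Igf1r, the IGF-1 receptor gene, spanned 533 to 637 CPM in non-diabetic and 483 to 675 CPM in diabetic vehicle libraries. Its log2 fold change was 0.05 ± 0.07 (edgeR adjusted p = 0.567), which became -0.04 with no scaling.

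Irs1, the adaptor that couples both receptors to PI3 kinase, was higher with diabetes. It ranged from 25.3 over 27.4 to 32.9 CPM in non-diabetic and from 33.1 over 43.8 to 52.4 CPM in diabetic vehicle libraries. The groups did not overlap, although the lowest diabetic library, replicate 3, lay just above the highest non-diabetic one. This was a log2 fold change of 0.65 ± 0.09 (edgeR adjusted p = 4.53e-06), a fold of 1.57. Irs1 shares 2822 of its 9144 exon bases with the antisense gene Gm9747, which had 0 or 1 counts per library. Irs2, the other main adaptor, varied within every group, from 55.6 to 150 CPM among non-diabetic and from 80.8 to 153 CPM among diabetic vehicle libraries, and its log2 fold change was 0.16 ± 0.29 (adjusted p = 0.700).

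Foxo1 encodes the transcription factor that insulin signalling keeps out of the nucleus, a step that RNA levels do not measure. It spanned 65.6 to 80.7 CPM in non-diabetic and 62.2 to 98.1 CPM in diabetic vehicle libraries. Of the diabetic libraries, replicates 1, 2 and 6 lay above all non-diabetic ones and the other 3 below all non-diabetic ones. The log2 fold change was 0.11 ± 0.09 (edgeR adjusted p = 0.336). An antisense gene, Gm20402, shares 674 exon bases with Foxo1 and had 0 to 5 counts per library.

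Igfbp1 encodes a secreted binding protein whose transcription insulin represses, and it differed by more than any other member. Its levels were 6.90, 9.51 and 26.6 CPM (lowest, median, highest) in non-diabetic vehicle and 21.2, 49.1 and 87.2 CPM in diabetic vehicle libraries. Only non-diabetic replicate 1, at 26.6 CPM, overlapped the diabetic group, and all 6 diabetic libraries were above the non-diabetic mean. Means were 12.3 ± 7.26 and 48.9 ± 23.1 CPM (SD, n = 6 each), and the log2 fold change was 1.98 ± 0.38 (edgeR adjusted p = 2.83e-04), a fold of 3.96. The spread among the diabetic libraries was wide, from 21.2 CPM in replicate 5 to 87.2 in replicate 6.

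Igfbp3, which encodes the main IGF carrier of the blood, was lower with diabetes. It ranged from 142 over 178 to 184 CPM in non-diabetic vehicle and from 57.7 over 96.6 to 127 CPM in diabetic vehicle libraries. The groups did not overlap, and the log2 fold change was -0.83 ± 0.14 (edgeR adjusted p = 9.35e-05), 1.77-fold lower. Igfbp4, which binds IGFs and is cut by PAPP-A, ranged from 496 over 735 to 856 CPM and from 305 over 414 to 504 CPM. Only non-diabetic replicate 5, the lowest of its group, overlapped the diabetic libraries, and the log2 fold change was -0.81 ± 0.13 (adjusted p = 1.51e-05), 1.75-fold lower. Igfbp5, a binding protein of matrix and bone, spanned 207 to 395 and 241 to 367 CPM and did not pass the test (log2 fold change -0.13 ± 0.13, adjusted p = 0.445).

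The calls for Irs1, Igfbp1, Igfbp3 and Igfbp4 were kept under all 21 alternatives tried, among them each omission of 1 library. With mitochondrially encoded and ribosomal RNA genes left out before scaling, the log2 fold changes were as large: 1.98 for Igfbp1, 0.65 for Irs1, -0.83 for Igfbp3 and -0.81 for Igfbp4.

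**Figure D3:**
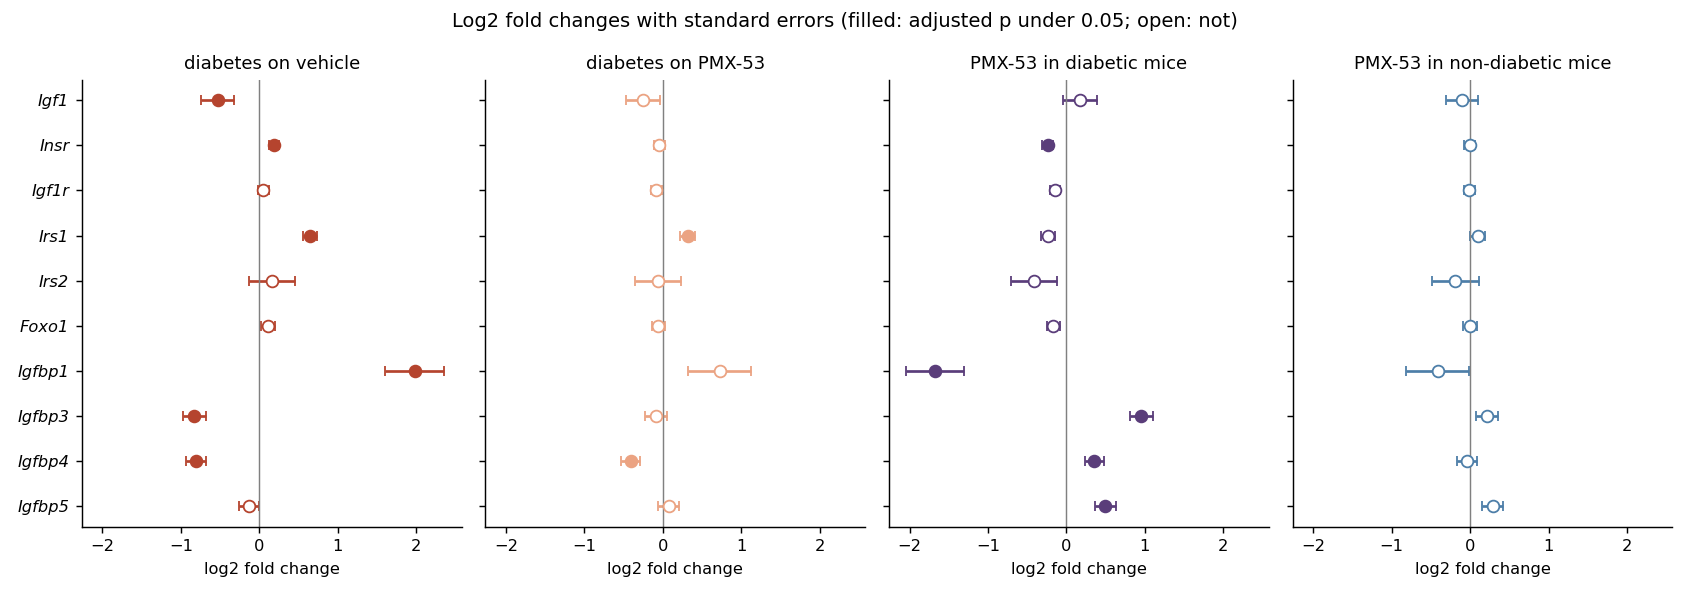
Log2 fold change of each member in 4 comparisons, with bars of 1 standard error and filled points for adjusted p under 0.05. With diabetes on vehicle 6 points are filled, with diabetes on PMX-53 2, with PMX-53 in diabetic mice 5 and with PMX-53 in non-diabetic mice 0.

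Among mice on PMX-53, diabetes came with higher Irs1 and lower Igfbp4, and the other 8 members did not pass the test. So 1 of 10 rose and 1 fell, where 5.52% of all genes rose and 4.52% fell, and the members' median log2 fold change was -0.06 against -0.00 over all genes. Only for Igfbp4 did the groups not overlap, as for 6.00% of all genes.

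Irs1 ranged from 26.1 over 30.2 to 33.2 CPM in non-diabetic and from 32.8 over 36.4 to 44.0 CPM in diabetic PMX-53 libraries. Only diabetic replicate 1, the lowest of its group, overlapped the non-diabetic libraries. Its log2 fold change was 0.32 ± 0.09 (edgeR adjusted p = 0.0289), a fold of 1.25. The call was lost with no scaling and without non-diabetic PMX-53 replicate 1 or 3 or diabetic PMX-53 replicate 5 or 6 (log2 fold change at least 0.26, adjusted p up to 0.0863).

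Igfbp4 ranged from 623 over 672 to 811 CPM in non-diabetic and from 435 over 537 to 593 CPM in diabetic PMX-53 libraries, without overlap. It differed by a log2 fold change of -0.41 ± 0.12 (edgeR adjusted p = 0.0351), 1.33-fold lower. The call was lost with no expression filter and without non-diabetic PMX-53 replicate 1, 2, 3 or 4 or diabetic PMX-53 replicate 1, 2 or 6, with a log2 fold change between -0.45 and -0.36 over the omissions and an adjusted p up to 0.105.

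Igfbp1 and Igfbp3, which had the largest differences on vehicle, did not pass on PMX-53. Igfbp1 ranged from 5.79 over 8.13 to 15.0 CPM in non-diabetic and from 7.18 over 14.1 to 28.2 CPM in diabetic PMX-53 libraries, with 5 of 6 diabetic libraries above the non-diabetic mean. Its log2 fold change was 0.72 ± 0.40 (edgeR adjusted p = 0.277). Igfbp3 spanned 182 to 205 CPM and 158 to 207 CPM, and its log2 fold change was -0.08 (adjusted p = 0.769).

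PMX-53 in diabetic mice came with lower Igfbp1 and Insr and with higher Igfbp3, Igfbp4 and Igfbp5. In all, 3 of 10 members rose and 2 fell, where 13.9% of all genes rose and 13.5% fell, and the members' median log2 fold change was -0.16 against 0.00 over all genes. Only for Igfbp3 did the groups not overlap, as for 8.20% of all genes. This comparison shares the diabetic vehicle libraries with the comparison of diabetes on vehicle, so a member that is low or high in these 6 libraries appears in both with opposite signs.

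Igfbp1 fell from 48.9 ± 23.1 to 15.2 ± 7.13 CPM (SD, n = 6 each). The diabetic PMX-53 libraries ranged from 7.18 to 28.2 CPM, and only replicate 4, the highest of them, overlapped the vehicle libraries at 21.2 to 87.2 CPM. The log2 fold change was -1.67 ± 0.37 (edgeR adjusted p = 0.00205), 3.19-fold lower, and 6 of 6 libraries were below the vehicle mean.

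Igfbp3 rose from 95.1 ± 29.6 to 184 ± 19.0 CPM, with the lowest PMX-53 library at 158 CPM and the highest vehicle library at 127 CPM. The log2 fold change was 0.95 ± 0.14 (edgeR adjusted p = 5.06e-05), a fold of 1.94. It was the only member whose 6 diabetic vehicle libraries all lay beyond the 18 others, as 3.73% of all genes tested did. The calls for Igfbp1, Igfbp3 and Igfbp5 were kept under all 21 alternatives.

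Igfbp5 rose from 279 ± 49.6 to 393 ± 45.1 CPM (0.50 ± 0.13 in log2, edgeR adjusted p = 0.00692). Its vehicle libraries spanned 241 to 367 CPM and its PMX-53 libraries 310 to 436 CPM, with replicate 6 alone of the PMX-53 libraries inside the vehicle range. Igfbp4 rose from 407 ± 85.5 to 521 ± 68.5 CPM (0.36 ± 0.12 in log2, adjusted p = 0.0346), and stayed under its non-diabetic means of 713 and 693 CPM. The call for Igfbp4 was lost without diabetic PMX-53 replicate 3, 4 or 5 or diabetic vehicle replicate 1, 2 or 5, with a log2 fold change of 0.28 at the least, and with no filter or with only the compared groups fitted (adjusted p up to 0.105).

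Insr fell from 258 ± 29.1 to 219 ± 13.2 CPM, with 6 of 6 PMX-53 libraries below the vehicle mean (log2 fold change -0.24 ± 0.07, edgeR adjusted p = 0.00893). With no scaling the log2 fold change was -0.13 (adjusted p = 0.314). Irs1 was at 44.0 ± 7.37 CPM on vehicle and 37.4 ± 4.03 on PMX-53 and did not pass (log2 fold change -0.23 ± 0.09, adjusted p = 0.0580). It passed without diabetic vehicle replicate 3 or 4 or diabetic PMX-53 replicate 5, where the log2 fold change was as large as -0.31. Igf1, Igf1r, Irs2 and Foxo1 had log2 fold changes of 0.18, -0.15, -0.41 and -0.17 and did not pass, and Igf1r passed only without diabetic vehicle replicate 4 (log2 fold change -0.20, adjusted p = 0.0231).

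With PMX-53 in non-diabetic mice 0 of the 10 members passed the test, and 0% of all genes were called by edgeR. At an unadjusted p under 0.05 there were 1142 of the 15808 genes and 1 member, Igfbp5, and DESeq2 called 5 genes and 0 members. The members' log2 fold changes lay between -0.41 for Igfbp1 and 0.29 for Igfbp5, whose adjusted p of 0.669 was the lowest of the 10.

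The interaction, which sets the inhibitor's effect in diabetic mice against that in non-diabetic mice, passed the test for Igfbp3 alone of the members, where 9.42% of all genes passed. Igfbp3 had a log2 difference of 0.74 ± 0.20 between the effects (edgeR adjusted p = 0.0245), from 169 ± 19.0 to 195 ± 10.6 CPM in non-diabetic and from 95.1 to 184 CPM in diabetic mice. It passed in 31 of 32 alternatives and was lost with no expression filter (adjusted p = 0.0659). For Igfbp1 the difference was -1.26 ± 0.55 (adjusted p = 0.159), and it passed without non-diabetic vehicle replicate 1 (-1.66, adjusted p = 0.0462). For Irs1 it was -0.33 (adjusted p = 0.112), and it passed without diabetic vehicle replicate 3 (-0.41, adjusted p = 0.0263). Insr, Igfbp4 and Igfbp5 had values of -0.23, 0.40 and 0.21 and did not pass. Their PMX-53 effects, like that of Igfbp1, were thus not shown to differ between diabetic and non-diabetic mice. For Igfbp3 the interaction tests whether the effects differ, not whether the effect is confined to diabetic mice. Its log2 fold change with PMX-53 in non-diabetic mice was 0.21 ± 0.14 and did not pass (edgeR adjusted p = 0.815).

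The other genes of the pathway were read from 9 lists. With diabetes on vehicle 20.4% of all genes rose and 19.9% fell, and with PMX-53 in diabetic mice 13.9% rose and 13.5% fell. The medians over all genes were -0.00 and 0.00. With diabetes on PMX-53 5.52% of all genes rose and 4.52% fell, and 9.42% passed the interaction. Each list's counts are to be read against the shares of its comparison. Of 10 further ligand, receptor and binding protein genes 5 were expressed enough to test, and 2 rose with diabetes on vehicle. Igf2r, which takes up IGF-2 for degradation, rose by 0.46 ± 0.07 (log2, edgeR adjusted p = 1.32e-05), from 285 ± 5.03 to 392 ± 52.9 CPM, and Igf2 by 0.93 ± 0.21 (adjusted p = 7.77e-04), from 0.761 ± 0.215 to 1.45 ± 0.321 CPM. Igf2 was scarce, so the size of its change rests on few counts per library. On PMX-53 Igf2r rose with diabetes again, by 0.38 ± 0.07 (adjusted p = 9.40e-04). Igfbp7, which encodes a low-affinity binding protein, did not pass in either (-0.09 and -0.19). With PMX-53 in diabetic mice 1 of the 5 rose, Insrr, the insulin receptor-related receptor, by 0.70 ± 0.13 (adjusted p = 3.53e-04).

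Of 8 genes for proteases that cut binding proteins and for inhibitors of proteases, 4 rose and 3 fell with diabetes on vehicle, with a median log2 fold change of 0.26. Pappa, the protease that cuts IGFBP-4, rose from 12.7 ± 2.15 to 30.4 ± 5.56 CPM (1.26 ± 0.14, edgeR adjusted p = 2.76e-07), while its substrate's gene Igfbp4 fell. Stc1, which encodes an inhibitor of PAPP-A, rose from 4.33 ± 0.747 to 19.6 ± 4.57 CPM (2.18 ± 0.25, adjusted p = 6.00e-07), and Stc2, which encodes another, rose by 0.87. Timp3, a metalloprotease inhibitor gene, fell from 1937 ± 267 to 836 ± 192 CPM (-1.21 ± 0.14, adjusted p = 1.85e-07), and Pappa2, the protease of IGFBP-3 and IGFBP-5, fell by 1.37 from 1.04 ± 0.234 to 0.386 ± 0.356 CPM. Pappa2 was scarce, and its SD in diabetic vehicle libraries was close to its mean.

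On PMX-53, 3 of these 8 rose with diabetes and 3 fell. Pappa2 fell by 2.87 ± 0.42 (edgeR adjusted p = 4.77e-05), from 1.25 ± 0.252 to 0.165 ± 0.079 CPM, Stc2 rose by 0.92 ± 0.18 and Pappa by 0.71 ± 0.14. At these levels the size of the change of Pappa2 rests on few counts per library. The gelatinase gene Mmp2 rose by 0.54 after 1.07 on vehicle, Timp3 fell by 0.45 and the serine protease gene Htra1 fell by 0.33 after 0.56 on vehicle. The PMX-53 call for Mmp2 was lost without non-diabetic PMX-53 replicate 3, 4 or 5 or diabetic PMX-53 replicate 2 or 6 (adjusted p up to 0.0781). Timp3 was lost in 7 omissions of 1 library, of non-diabetic PMX-53 replicate 1, 2, 3 or 4 or diabetic PMX-53 replicate 1, 4 or 6, and Htra1 in 9, of the former 1 to 5 or the latter 1, 4, 5 or 6 (adjusted p up to 0.0983 and 0.0904 over all alternatives). With PMX-53 in diabetic mice 2 rose and 2 fell: Timp3 was higher by 0.78 ± 0.14, and Stc1 and Pappa were lower by log2 values of -1.10 and -0.61 (adjusted p = 1.33e-04, 0.00116 and 0.00180). The interaction was passed by Timp3 (0.76 ± 0.19) and Stc1 (-1.44 ± 0.36).

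In the growth hormone axis 2 of 6 genes were lower with diabetes on vehicle and 2 with diabetes on PMX-53. Ghr, the growth hormone receptor, fell by 0.51 ± 0.09 on vehicle (edgeR adjusted p = 8.07e-05), from 623 ± 59.7 to 438 ± 79.3 CPM, and by 0.33 ± 0.09 on PMX-53 (adjusted p = 0.0227). The second call was lost with no scaling and without non-diabetic PMX-53 replicate 3 or diabetic PMX-53 replicate 1 or 4, with adjusted p up to 0.0741. Stat5a, which carries the growth hormone signal, fell on vehicle by 0.27. With PMX-53 in diabetic mice 1 of 6 fell, the kinase gene Jak2, by 0.19 (adjusted p = 0.0130), which was not kept with no scaling (adjusted p = 0.541).

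Of 18 genes for kinases and adaptors downstream of the receptors 5 rose and 4 fell with diabetes on vehicle, with a median of -0.02. Pde3b, the phosphodiesterase through which insulin lowers cyclic AMP, rose by 0.52 ± 0.10 and the PI3 kinase subunit gene Pik3cb fell by 0.24 ± 0.05 (edgeR adjusted p = 2.36e-04 and 3.78e-04). Sh2b2, an adaptor gene, fell by 1.03 ± 0.30 (adjusted p = 0.00678). On PMX-53 1 rose, the PI3 kinase regulatory subunit gene Pik3r3, by 0.43 after 0.39 on vehicle, and 1 fell, the docking protein gene Gab1, by 0.24 after 0.16. Pik3r3 did not pass on PMX-53 without non-diabetic PMX-53 replicate 3 or diabetic PMX-53 replicate 2 (adjusted p up to 0.0644). With PMX-53 in diabetic mice 2 of the 18 were higher, Sh2b2 and Tbc1d1. Tbc1d1 did not pass with only the compared groups fitted, nor Sh2b2 without diabetic PMX-53 replicate 1 (adjusted p = 0.0507 and 0.0576 at the most).

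Of 14 tested negative regulators 4 rose and 4 fell with diabetes on vehicle. Ide, which degrades insulin, fell by 1.04 ± 0.10 (edgeR adjusted p = 1.44e-08), the lipid phosphatase gene Inpp5k rose by 0.34 ± 0.06 and the AKT phosphatase gene Phlpp2 fell by 0.31 ± 0.06. On PMX-53 2 rose and 1 fell, and Ide was not among them. Trib3, which encodes a pseudokinase that binds AKT, rose by 0.94 after 0.92 on vehicle, Ppp1r3c, a glycogen-targeting phosphatase subunit gene, by 0.92 after 0.75, and Phlpp2 fell by 0.26. Ppp1r3c was lost without diabetic replicate 5 of either treatment, and Trib3 on PMX-53 without non-diabetic PMX-53 replicate 1 or 2 or diabetic PMX-53 replicate 4 or 6 (adjusted p up to 0.054 and 0.0735). With PMX-53 in diabetic mice 1 rose, Ide, by 1.16 ± 0.10 (adjusted p = 1.88e-08), and 2 fell, Ptpn1 and Inpp5k, both lost with no scaling (adjusted p = 0.0524 and 0.398). Both calls for Ide use the diabetic vehicle libraries, which stood apart from the 18 others at this gene. Its interaction includes these libraries too and passed (1.00 ± 0.14, edgeR adjusted p = 9.61e-05).

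Of 16 genes of the mTOR pathway 5 rose and 2 fell with diabetes on vehicle, beside 20.4% and 19.9% of all genes. Ddit4, an inhibitor of mTOR complex 1, rose from 6.52 ± 1.43 to 57.2 ± 37.0 CPM (3.13 ± 0.39, edgeR adjusted p = 2.52e-06), the translation repressor gene Eif4ebp1 by 0.88 ± 0.13 and the kinase gene Sgk1 by 1.46 ± 0.31. On PMX-53 0 of 16 rose with diabetes and 1, Mtor itself, fell by 0.23 with an adjusted p of 0.0495 that was lost in most alternatives. With PMX-53 in diabetic mice 5 fell and 1 rose: Ddit4 fell by 2.51 ± 0.37, Sgk1 by 1.68 ± 0.31 and Eif4ebp1 by 0.63 ± 0.12. Ddit4 and Sgk1 passed the interaction (-2.78 ± 0.56 and -1.71 ± 0.43, adjusted p = 0.00435 and 0.0177).

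Foxo3, the gene of another FoxO factor, rose with diabetes on vehicle, and Foxo4 did not pass the test (1 of 2 tested). It went from 127 ± 28.5 to 241 ± 74.6 CPM (0.92 ± 0.18, edgeR adjusted p = 2.54e-04) and was at 145 ± 22.9 CPM in diabetic PMX-53 libraries, a fall of 0.73 ± 0.18 from the diabetic vehicle level (adjusted p = 0.00358). The interaction for Foxo3 did not pass (adjusted p = 0.0505).

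Genes that FOXO1 activates or insulin represses, beside Igfbp1 and Irs2, gave 10 higher and 3 lower of 20 with diabetes on vehicle, with a median of 0.29, where 20.4% of all genes rose and 19.9% fell with a median of -0.00. Sesn3, which encodes a stress-induced sestrin, rose by 0.63 ± 0.06 (edgeR adjusted p = 2.01e-08), Ppargc1a, a coactivator of gluconeogenesis and mitochondrial genes, by 0.65 ± 0.08, and Sesn1 by 0.98 ± 0.14. Fbxo32, a ubiquitin ligase gene, rose by 0.93 ± 0.14. On PMX-53 2 of 20 rose with diabetes, Sesn3 by 0.39 ± 0.06 and Fbxo32 by 0.62 ± 0.14, and 1 fell, with a median of -0.04. There 5.52% of all genes rose and 4.52% fell.

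With PMX-53 in diabetic mice 0 of these 20 rose and 9 fell, with a median of -0.31, where 13.9% of all genes rose and 13.5% fell with a median of 0.00. Pck1, the gluconeogenic enzyme PEPCK, was at 1696 ± 562 CPM in non-diabetic vehicle, 3544 ± 281 in diabetic vehicle and 1132 ± 495 in diabetic PMX-53 libraries, and fell by 1.65 ± 0.24 with PMX-53 (edgeR adjusted p = 3.62e-05). Sesn1 fell by 0.86 ± 0.14 and Txnip, a glucose-responsive inhibitor of thioredoxin, by 0.90 ± 0.17. In the interaction 4 of 20 had a negative difference past the threshold, among them Ppargc1a (-0.51 ± 0.11), Txnip (-0.99 ± 0.24) and Pck1 (-1.20 ± 0.33), and Pck1 was lost with no expression filter (adjusted p = 0.0595).

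**Figure D4:**
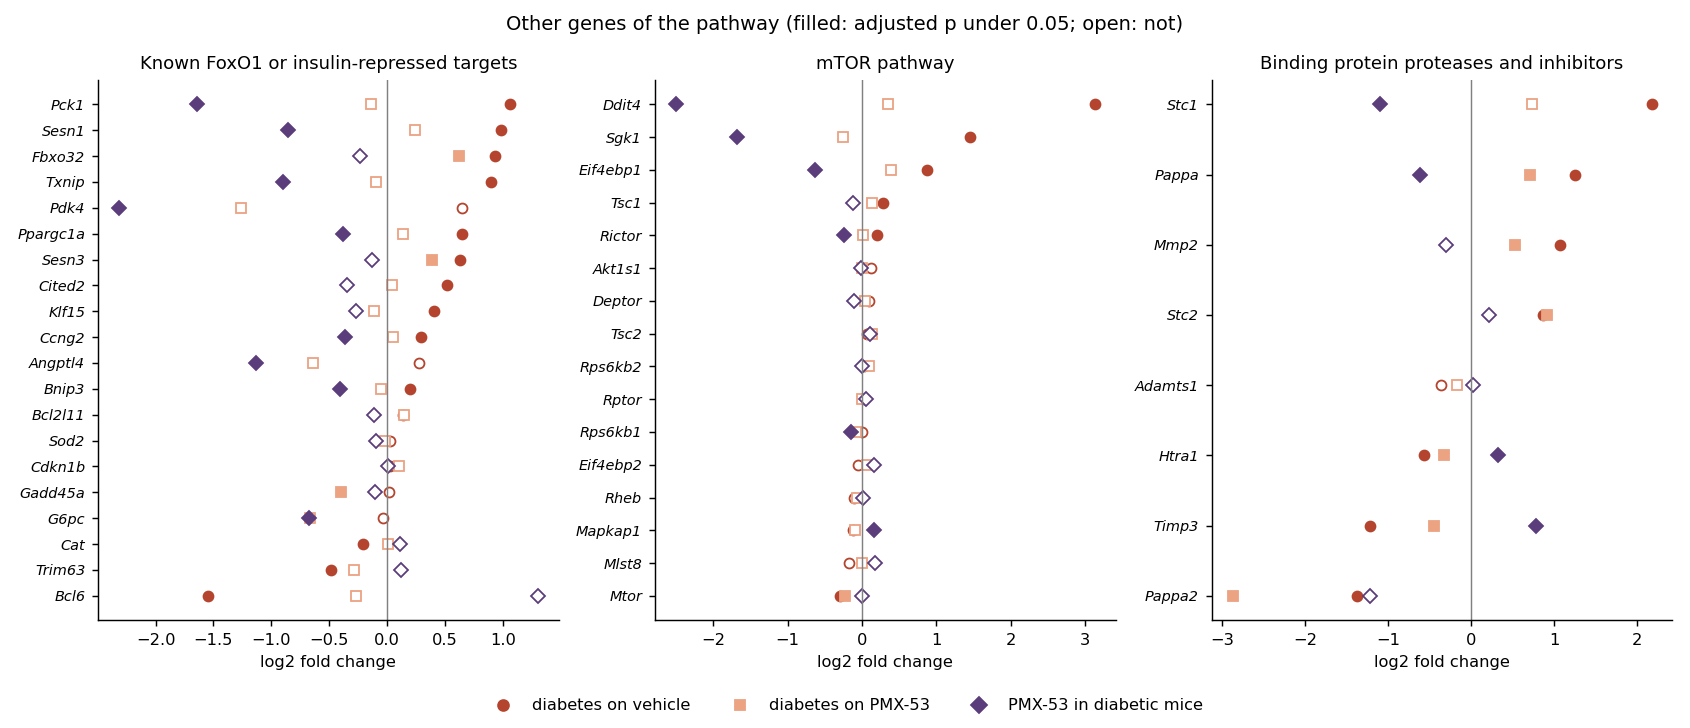
Log2 fold changes of the tested genes of 3 pathway lists in 3 comparisons, filled where adjusted p was under 0.05. Pck1 and Ddit4 lie to the right with diabetes on vehicle (1.06 and 3.13) and to the left with PMX-53 in diabetic mice (-1.65 and -2.51), 2 comparisons that share the diabetic vehicle libraries.

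Genes that insulin induces for glycolysis and fat synthesis gave 1 higher and 4 lower of 9 tested with diabetes on vehicle, with a median of -0.26. Elovl6, a fatty acid elongase, rose from 17.9 ± 4.07 to 33.7 ± 4.42 CPM (0.91 ± 0.14, edgeR adjusted p = 1.29e-05), Acly, which makes cytosolic acetyl-CoA, fell by 0.27 ± 0.08, and Hk2, a hexokinase, by 0.86 ± 0.28. The call for Hk2 was lost without non-diabetic vehicle replicate 1 (adjusted p = 0.146). On PMX-53 0 of 9 passed, and with PMX-53 in diabetic mice Elovl6 fell by 0.67 ± 0.14 and Hk2 rose by 1.06 ± 0.27.

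Some markers of cell types also passed the test, as did many genes outside these lists. Among all 15808 genes, 20.4% were called higher and 19.9% lower in diabetic than in non-diabetic vehicle mice. Between the diabetic groups, 13.9% were called higher and 13.5% lower on PMX-53 than on vehicle. The marker counts below have these shares as their background. In whole cortex, fewer cells of a type and less RNA per cell cannot be told apart. Of 10 markers of mesangium, pericytes, fibroblasts and smooth muscle 4 fell and 0 rose with diabetes on vehicle, and 6 rose with PMX-53 in diabetic mice. Their sum spanned 182 to 291, 157 to 234 and 213 to 339 CPM in non-diabetic vehicle, diabetic vehicle and diabetic PMX-53 libraries. Of 8 endothelial markers 1 rose and 3 fell, and then 3 rose (359 to 435, 336 to 380 and 366 to 442 CPM). Of 7 macrophage markers 1 fell with diabetes on vehicle, and 0 passed with PMX-53 in diabetic mice.

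Of 7 markers of the proximal tubule's S3 segment 4 fell with diabetes on vehicle, and 4 rose and 2 fell with PMX-53 in diabetic mice (3480 to 4001, 923 to 2610 and 1958 to 2506 CPM). Of 8 podocyte markers 0 passed with diabetes on vehicle and 6 rose with PMX-53 in diabetic mice (316 to 356, 307 to 345 and 406 to 510 CPM). All 7 principal cell markers rose with diabetes on vehicle and 2 fell with PMX-53 (141 to 193, 252 to 411 and 237 to 323 CPM), and of 7 tested inner medulla markers 3 rose and 1 fell, and then 4 fell (301 to 546, 385 to 658 and 223 to 369 CPM). Of 7 markers each, those of the distal convoluted and connecting tubule gave 4 higher and 0 lower with diabetes on vehicle and then 3 higher and 0 lower with PMX-53, and those of intercalated cells 5 and 0 and then 2 and 0. For the thick ascending limb the counts were 3 higher and 2 lower and then 0 and 2, and for the proximal tubule's S1 and S2 segments 3 and 3 and then 3 and 0. In non-diabetic PMX-53 libraries the sums were 354 to 426 CPM for podocyte, 192 to 303 for principal cell and 285 to 497 for inner medulla markers. They were 203 to 308 CPM for the mesangium list, 398 to 422 for endothelium and 3140 to 4201 for the S3 segment. Of the podocyte and principal cell markers 0 passed with PMX-53 in non-diabetic mice, as did 0% of all genes. The part of these cell types in the members' differences was not tested.

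The genes most like a member were found by correlation of log2 CPM over the 24 libraries, which includes the differences between groups. For Igfbp3 they included Pdzd3 (r = 0.93) and Synpo2 (0.92), with correlations of deviations from group means of 0.78 and 0.75. For Igfbp1 they were Pnpla2 (0.93), Tmem140 (0.90) and Ndnf (0.90), with 0.76, 0.81 and 0.73 within groups. Igfbp4 was most like Aspdh (0.95), Proc (0.94) and Ttc36 (0.93), and Irs1 was most like Tanc1 (0.94), Sfxn3 (0.94) and Efhd1 (0.93). Igf1r, Irs2 and Foxo1 had weaker nearest genes over the 24 libraries. For Igf1r they were Nedd4l (0.81), Sf1 (0.79) and Foxo1 (0.78), with 0.79, 0.77 and 0.76 within groups. For Irs2 they were Fnip2 (0.78), N4bp2l1 (0.74) and RP24-120F8.1 (0.73), with 0.74, 0.71 and 0.69 within groups. For Foxo1 they were Sec62 (0.80), B4galt1 (0.79) and Adarb1 (0.78), with 0.86, 0.79 and 0.82 within groups. Insr was most like Ptgfr (0.87), Ptbp3 (0.87) and Fga (0.86), and Igfbp5 was most like Esrra (0.87), Hes6 (0.85) and Tril (0.82). Igf1 was most like Scai (0.91), Rrm2b (0.83) and D3Ertd751e (0.81). These values describe 24 libraries that share groups, depth and scaling.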

How the data were processed

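The authors deposited a table of unnormalized whole-number read counts, with genes in rows and 24 libraries in columns. The submitters' processing notes name bcl2fastq 2.20.0.422, STAR and the GRCm38 build. Ribosomal RNA was depleted from 200 ng of total RNA and a directional kit was used, per the labels' protocols. Not given in the sources used here are STAR's version, the annotation, the counter and whether it used strand, so reads of antisense partners may not be separable.

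The main test was run in edgeR 4.0.16 under R 4.3.3, with DESeq2 1.42.0 and limma 3.58.1 as alternatives, and figures were drawn with matplotlib 3.10.9. The default expression filter left 15808 of 48526 genes, libraries were TMM-scaled, and 1 coefficient per group was fitted to all 24 libraries with the robust quasi-likelihood F test. Adjusted p-values are Benjamini-Hochberg over all 15808 genes in each of the 5 comparisons, with a threshold of 0.05. Standard errors are the log2 fold change divided by the root of F. Likeness used log2 CPM with a prior count of 2. The 60 pairs of libraries within groups differed beyond counting noise (chi-square per degree of freedom at least 5.21). The fit was tested on simulated counts in which a small share of genes changed, equally up and down. They do not test scaling where as many genes differ as in these data.

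The members, 9 pathway lists, 15 marker lists and alternatives were chosen with earlier results of these data known. Named are all members and genes drawn from up to 3 genes of each list with the smallest p in a comparison, genes past the threshold in both diabetes comparisons, the 3 genes most like each member, and Nnt and Ide, except 1 gene that is not reported here. Positions are from GENCODE M21, and upstream sequences and starts from RefSeq.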

Additional observations from a re-analysis of the deposited data

Results flagged for a closer look

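Among 40 sets of 6 libraries (10 members in 4 groups) 2 held a library far from the others. The rule flags about 1 in 20 independent sets by chance. The members share libraries, so these sets are not independent and their number cannot be judged against that rate. Both were non-diabetic vehicle replicate 1, at 26.6 CPM for Igfbp1, where the other 5 were at 6.90 to 12.3, and at 80.7 CPM for Foxo1, where the other 5 were at 65.6 to 70.5. The same library was also the highest of its group for Insr, Igf1r and Igfbp4. It was the lowest of its group for Igf1, Igfbp3 and Igfbp5, and at neither end for Irs1 and Irs2.

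The effect of PMX-53 on Igfbp3 differed between diabetic and non-diabetic mice by 0.74 on the log2 scale (edgeR interaction, adjusted p = 0.0245). It was above the vehicle mean in 6 of 6 PMX-53 libraries of diabetic mice and likewise in 6 of 6 of non-diabetic mice.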

How the results depend on the processing

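Under alternatives other than omissions 419 values of members kept their direction and their side of the threshold, 12 lost the call, 2 gained it and 7 changed sign. The number of members called differed from the reported one by over 1.5 times for diabetes on PMX-53 with no scaling (1) and no expression filter (1), and for the interaction with no expression filter (0) and limma voom with quality weights (3, adding Insr and Igfbp4). With 1 library left out the counts ranged from 4 to 6 for diabetes on vehicle, 0 to 2 for diabetes on PMX-53, 4 to 7 for PMX-53 in diabetic mice, 0 to 0 for PMX-53 in non-diabetic mice and 1 to 2 for the interaction. The count for diabetes on PMX-53 was 0 without non-diabetic PMX-53 replicate 1 or 3 or diabetic PMX-53 replicate 6.

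Signs turned only in values that did not pass. For diabetes on vehicle Igf1r was -0.036 with no scaling. For PMX-53 in non-diabetic mice Foxo1 was 0.0033 with no scaling, 0.0039 with no filter, 0.0022 with voom and 0.0020 with the replicate block, and voom gave 0.0074 for Insr and 0.0065 for Igf1r. Over omissions there, Foxo1 ran from -0.020 to 0.042, Igf1 from -0.24 to 0.067, Igf1r from -0.027 to 0.027, Igfbp4 from -0.13 to 0.019 and Insr from -0.035 to 0.025, and Irs2 ran from -0.30 to 0.083 for diabetes on PMX-53.

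Without scaling the median log2 fold change of all genes was -0.09 for diabetes on vehicle and 0.12 for both PMX-53 in diabetic mice and the interaction. Higher genes then made up 31.2% of calls for diabetes on vehicle (50.7% with TMM), 65.7% for diabetes on PMX-53 (54.9%), 79.5% for PMX-53 in diabetic mice (50.7%) and 79.3% for the interaction (49.5%). All genes called for diabetes on PMX-53 were 871 with no scaling and 2626 with voom against 1587, and for the interaction 2281 with voom and 2242 without diabetic vehicle replicate 4 against 1489. The cause was not tested.

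Replicate numbers did not pair the libraries: of 36 pairs with the same number, correlations of deviations from group means ran from -0.124 to 0.131, 3 were above 0.1 and 4 were highest with their own number. With the replicate block 5, 2, 5, 0 and 1 members were called in the 5 comparisons, in the order of the report. Igf1 rests on 44 to 129 counts per library, which limits its precision.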
